A study of Mus musculus with 4 samples.

Results

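The genes described here encode ligands of the epidermal growth factor (EGF) family and their ERBB receptors, measured in injured mouse colon epithelium. The 10 genes were fixed by name: 7 ligands (Areg, Ereg, Hbegf, Tgfa, Btc, Epgn and Egf) and 3 receptors (Egfr, Erbb2 and Erbb3). Every probe set (a group of array probes for 1 transcript) whose annotation gives 1 of these genes alone was taken, which made 20 of 45101 probe sets. They covered 9 of the 10 genes, and Areg was not analysed here. The study asked how deletion of Stat3, a transcription factor activated by cytokines, in intestinal epithelium changes gene expression during colitis. The 2 Cre-negative mice were Stat3flfl VillinCre- and the 2 Cre-positive mice Stat3flfl VillinCre+, so all 4 carried floxed Stat3 alleles and the villin promoter directed Cre to intestinal epithelial cells in 1 group. All 4 had drunk 2.5% dextran sodium sulphate (DSS), which injures the colon lining, for 5 days, with no untreated mouse for comparison. The labels name no age, strain or litter of the mice.

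Ligands of this family are made as membrane-bound precursors, and proteases of the ADAM family, helped by the iRhom proteins, cut most of them free. Amphiregulin (Areg), epiregulin (Ereg), HB-EGF (Hbegf), TGF-alpha (Tgfa), betacellulin (Btc), epigen (Epgn) and EGF itself bind EGFR, whose dimers, also with ERBB2 and ERBB3, switch on the RAS-ERK and PI3K-AKT pathways. ERBB2 binds no ligand of its own, and ERBB3 has very weak kinase activity and signals through its partners. In the gut the pathway is known for driving crypt cell division and the closing of epithelial wounds.

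In the RefSeq annotation (GRCm38.p6) Epgn, Ereg, Areg and Btc follow each other in this order on chromosome 5, with only noncoding genes between them. Of these neighbours Epgn lay at the bottom of the intensity scale in all 4 mice and Btc lay well above it, so their promoter windows are shown for comparison. Each window runs from 250 bases before to 50 after the start site, 5′ to 3′ on the gene's own strand, with CpG dinucleotides in capitals. The Epgn window is chr5:91027267-91027566 on the plus strand, and the Btc window is chr5:91402945-91403244 on the minus strand.
Epgn: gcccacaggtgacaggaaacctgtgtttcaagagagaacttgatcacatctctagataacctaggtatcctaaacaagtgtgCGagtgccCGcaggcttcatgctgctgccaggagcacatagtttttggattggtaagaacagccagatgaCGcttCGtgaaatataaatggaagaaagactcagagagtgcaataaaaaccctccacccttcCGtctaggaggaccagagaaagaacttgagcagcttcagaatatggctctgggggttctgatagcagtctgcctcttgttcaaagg
Btc: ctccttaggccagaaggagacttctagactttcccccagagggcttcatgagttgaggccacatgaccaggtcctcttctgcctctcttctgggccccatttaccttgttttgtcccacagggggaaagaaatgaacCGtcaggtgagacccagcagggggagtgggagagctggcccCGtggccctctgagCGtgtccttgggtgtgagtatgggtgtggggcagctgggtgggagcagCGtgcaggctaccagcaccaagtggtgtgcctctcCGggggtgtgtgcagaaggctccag
Both windows held 5 CpG dinucleotides, while the median over 32851 windows of this length was 7. The GC content was 47.3% for Epgn and 60.3% for Btc, against a median of 52.7%. RefSeq windows of 7 of the 10 genes were searched (8 windows, since Egf has 2 start sites). Hbegf, Ereg and Erbb3 were not among them, so nothing is said here of their windows. None of the 8 held the STAT motif TTCNNNGAA on either strand, which 8.3% of all windows held, and none held the AP-1 motif TGANTCA, which 7.81% held. This says only that these letters do not occur in these windows.

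The 4 arrays were much alike. Correlations between them over 12659 genes tested ranged from 0.981 to 0.994, with Cre-positive mouse 1 farthest from the others. The ratio of 3-prime to 5-prime signal lay between 1.27 and 1.42 for Actb and between 0.782 and 0.992 for Gapdh. Epithelial identity was clear, with all 13 pan-epithelial markers above the filter, all 6 endothelial markers below it, and 4 of 6 smooth muscle and 5 of 11 fibroblast markers below it. The targeted gene, by its brightest probe set, measured log2 10.46 and 10.50 in the Cre-negative mice and 9.28 and 8.16 in the Cre-positive mice, a difference of -1.75 (limma adjusted p = 0.332). A second bright probe set differed by -1.57, and a dimmer one, at log2 4.75 to 6.82, by 1.29 the other way, each with separated groups. Which probe sets lie in the deleted part is not known from the labels.

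By the test none of the ligand and receptor genes differed between Cre-positive and Cre-negative epithelium. Genes were tested by their brightest probe set if its mean lay above log2 2.81, the 40th percentile of all probe sets, and 8 of the 10 passed this filter (Epgn did not). In limma 0 of 8 were called, where 0% of all 12659 genes were, and the adjusted p-values ran from 0.615 for Erbb3 to 0.988 for Hbegf. At an unadjusted p under 0.05 there were 0 as well, against 2.54% of all genes higher and 8.51% lower. Over all genes that was 322 higher and 1077 lower, or 329 and 610 with arrays centred on their medians. For none of the 8 did the 2 groups separate, whereas in 13.5% of all genes both Cre-positive mice lay above both Cre-negative mice and in 34.7% they lay below. The median difference of the 8 was 0.20 on the log2 scale, against -0.05 over all genes. All 8 means were higher in Cre-positive epithelium, against 38.5% of all genes. That direction rested on 1 mouse. Cre-positive mouse 1 was the highest of the 4 for 7 of the 8 genes, which it was for 25% of all genes. Without it 5 of the 8 differences were negative. With all 4 mice 7780 of the 12659 genes had a negative difference, and the count without that mouse is not given here. With 2 mice a group the smallest two-sided p of an exact permutation test is 0.333. The limma intervals below are wide for most genes and leave room for sizeable differences, while that of the dim Egf is narrower (-0.16 to 0.31).

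**Figure D1:**
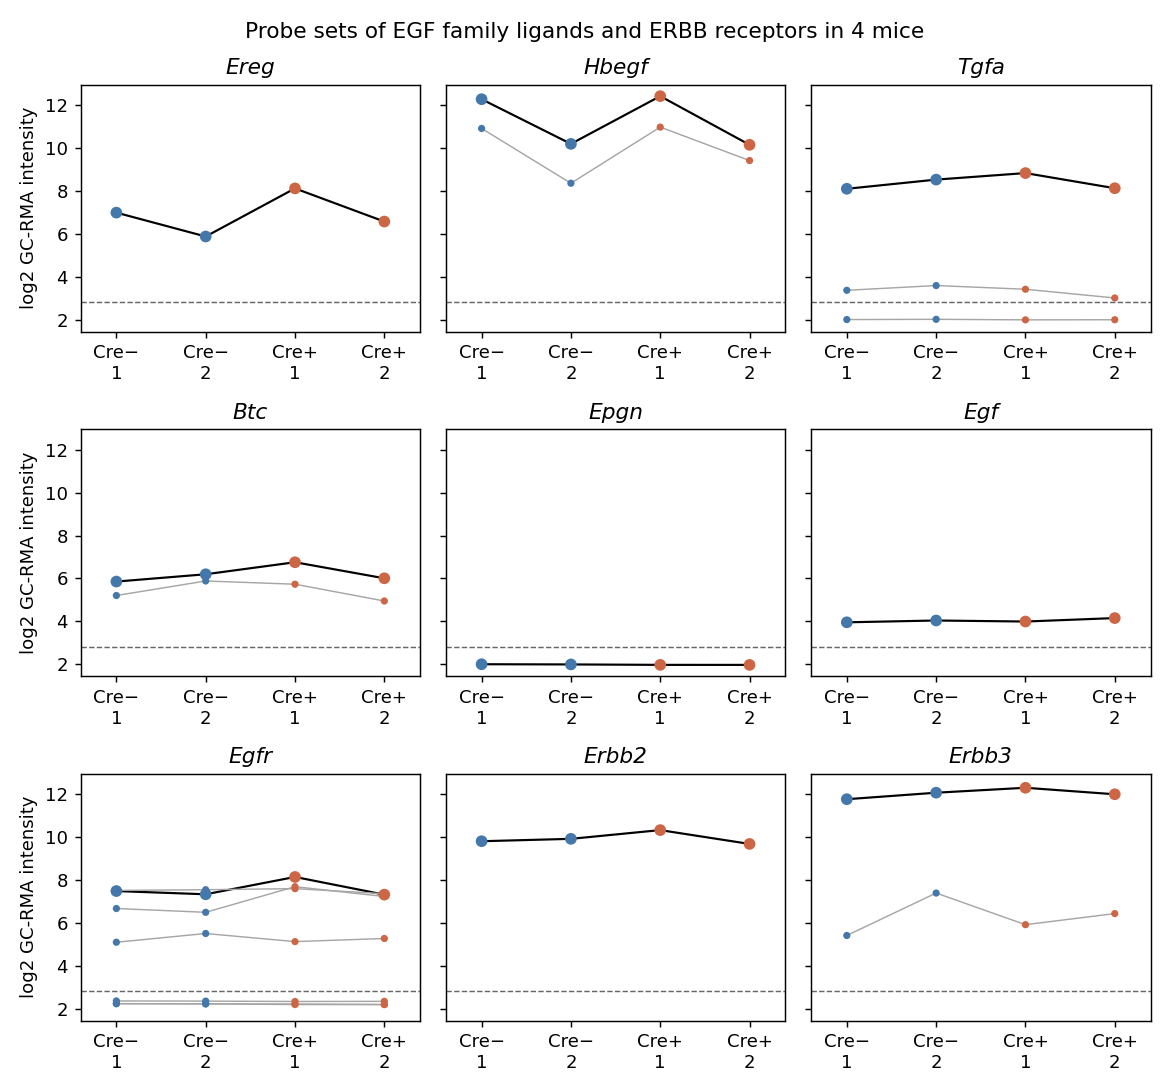
Log2 GC-RMA intensity (vertical axis) of every probe set of 9 genes in the 4 mice (horizontal axis; blue Cre-negative, orange Cre-positive). Black lines join the values of a gene's brightest probe set, grey lines those of its other probe sets, and the dashed line is the filter at log2 2.81. Hbegf and Ereg are higher in both mice numbered 1 than in both numbered 2, and Epgn lies under the filter in all 4.

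Hbegf, a ligand that also binds ERBB4, differed strongly between mice of the same group. Its brightest probe set measured log2 12.29 and 10.21 in Cre-negative mice 1 and 2, and 12.43 and 10.16 in Cre-positive mice 1 and 2. Mouse 1 stood about as high in both groups and mouse 2 about as low, and the groups overlapped fully. From the lowest to the highest mouse the signal spanned 4.83-fold. The difference between group means was 0.05 (SE 1.16, 95% interval -3.32 to 3.42, n = 2 per group, limma adjusted p = 0.988). The other Hbegf probe set was also higher in both mice numbered 1 than in both numbered 2, at log2 10.93 and 8.37 in the Cre-negative and 10.99 and 9.43 in the Cre-positive group, though here Cre-positive mouse 2 lay above Cre-negative mouse 2. Without Cre-positive mouse 1 the difference was -1.09, and without Cre-positive mouse 2 it was 1.19. In span between mice Hbegf ranked 147 of 12659 genes.

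Ereg, a ligand of EGFR and ERBB4, had the largest difference of the 8 and a similar spread. Its only probe set measured log2 6.99 and 5.88 in Cre-negative mice 1 and 2, and 8.13 and 6.58 in Cre-positive mice 1 and 2. Both mice numbered 1 lay above both numbered 2, and Cre-positive mouse 2 lay between the Cre-negative mice. The group means were 7.35 ± 1.09 and 6.44 ± 0.79 (SD, n = 2), a 1.89-fold difference of 0.91 (SE 0.73, 95% interval -1.21 to 3.04, limma adjusted p = 0.623). It came to 1.69 without Cre-positive mouse 2 and to 0.14 without Cre-positive mouse 1. Ereg ranked 152 of all genes in span.

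The remaining ligands varied less between mice. Tgfa, an EGFR ligand made by many epithelia, measured log2 8.11 and 8.54 in the Cre-negative and 8.84 and 8.13 in the Cre-positive mice by its brightest probe set. Its groups overlapped, with a difference of 0.17 (SE 0.33, limma adjusted p = 0.834). A dim second Tgfa probe set, between log2 3.01 and 3.59, differed by -0.27, and the third lay at the bottom of the scale. Btc measured log2 5.85 and 6.19 in the Cre-negative and 6.76 and 6.01 in the Cre-positive mice. Here too Cre-positive mouse 1 was alone in standing high, and the difference of 0.36 (SE 0.34, limma adjusted p = 0.666) was -0.02 without it. The second Btc probe set differed by -0.20. Egf, dim at log2 3.95 to 4.15, spanned only 0.20 between the mice, with a difference of 0.07 (SE 0.08, 95% interval -0.16 to 0.31). Epgn lay between log2 1.96 and 1.99 in all 4 mice, which gives no measure of its level.

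Of the receptors, Erbb3 and Erbb2 spanned 0.53 and 0.65 between mice on the log2 scale by their brightest probe sets, less than Hbegf and Ereg but more than the median gene (0.41). Erbb3 measured log2 11.78 and 12.08 in the Cre-negative and 12.31 and 12.01 in the Cre-positive mice. Cre-positive mouse 2 lay between the Cre-negative mice, and the difference was 0.23 (SE 0.18, 95% interval -0.29 to 0.75, limma adjusted p = 0.615). A second, dimmer Erbb3 probe set ranged from log2 5.41 to 7.39, both in Cre-negative mice, and differed by -0.23. Erbb2 measured log2 9.81 and 9.93 in the Cre-negative and 10.33 and 9.69 in the Cre-positive mice. Its highest and lowest values were thus both Cre-positive, and the difference was 0.14 (SE 0.26, 95% interval -0.62 to 0.90, limma adjusted p = 0.819).

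Egfr had 7 probe sets, and the 4 above the filter did not move together. The brightest measured log2 7.49 and 7.34 in the Cre-negative and 8.15 and 7.32 in the Cre-positive mice, a difference of 0.32 (SE 0.34, 95% interval -0.68 to 1.32, limma adjusted p = 0.694). Another of nearly the same brightness lay between log2 7.37 and 7.60 in all 4 mice and differed by -0.05. One more, at log2 6.67 and 6.50 against 7.69 and 7.23, was higher in both Cre-positive mice, by 0.88. Of the 15 member probe sets above the filter it was the only one with separated groups, where 13.8% of 26999 probe sets separated upwards and 35.5% downwards. With every probe set fitted as its own row its unadjusted p was 0.0296, a level that 3.37% of probe sets reached on the higher side, and its adjusted p was 0.362. The last of these 4 differed by -0.10, and the other 3 lay at log2 2.18 to 2.36, under the filter. Those 3, the dimmest Tgfa probe set and that of Epgn differed by -0.04 to -0.02, at the bottom of the scale.

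**Figure D2:**
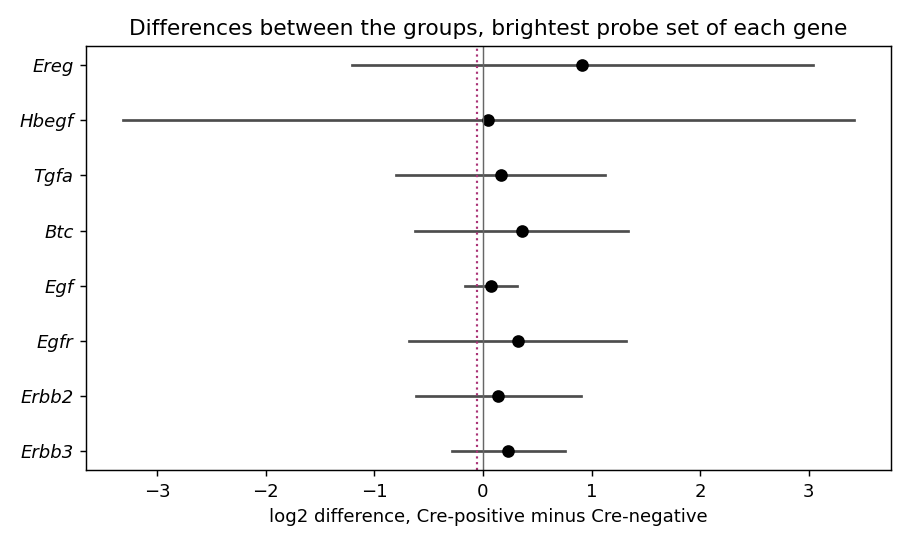
Log2 difference of group means, Cre-positive minus Cre-negative (horizontal axis), for the brightest probe set of the 8 genes tested, with 95% intervals from limma as bars. The solid line marks 0 and the dotted line the median of all 12659 genes (-0.05). Every interval spans 0, with the widest for Hbegf and the narrowest for Egf.

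The wider pathway was read through 7 lists of 81 genes chosen for their roles. In limma 0 of the 72 tested were called. At an unadjusted p under 0.05, 2 were higher and 2 lower, against 2.54% and 8.51% of all genes. The groups separated in 14 upwards and 10 downwards, against 13.5% and 34.7% of all genes. The Cre-positive mean was higher in 47 of the 72, against 38.5% of all genes, and the median difference was 0.13 on the log2 scale. That share of all genes is the background for the counts of higher means in the lists below. Erbb4, the remaining receptor of the family, was dim, at log2 3.51 and 3.47 in the Cre-negative and 3.26 and 3.30 in the Cre-positive mice (unadjusted p = 0.00400, limma adjusted p = 0.244). The neuregulins Nrg2, Nrg3 and Nrg4, ligands of ERBB3 and ERBB4, were dim too, between log2 2.81 and 3.11, and Nrg1 lay under the filter. Many genes this dim were lower. Over all genes 1077 were lower at an unadjusted p under 0.05, and 259 with the filter at the 60th percentile (log2 4.61). The part of low signal in the value of Erbb4 was not tested.

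Of the genes that release ligands, 7 of 8 were tested, 4 with a higher and 3 with a lower mean. Adam17, the main sheddase of Tgfa, Hbegf, Areg and Ereg precursors, measured log2 8.95 and 8.90 in the Cre-negative and 9.12 and 9.15 in the Cre-positive mice. The groups separated by 0.21 (SE 0.11, limma adjusted p = 0.532), and all 3 of its probe sets pointed the same way. Rhbdf1, which encodes an iRhom, measured log2 7.84 in both Cre-negative and 8.37 and 8.08 in the Cre-positive mice, a difference of 0.39 (SE 0.17, limma adjusted p = 0.508). Rhbdl2, a rhomboid protease, differed by -0.25, with 2 of 3 probe sets going the other way. Nkd2, whose product escorts the Tgfa precursor to the cell surface, differed by -0.11 (unadjusted p = 0.00601, limma adjusted p = 0.253). It was as dim as the neuregulins, at log2 2.89 to 3.02, where many genes were lower.

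Among 13 genes of receptor inhibition and turnover, 8 had a higher and 5 a lower mean. Lrig1, an inhibitor of ERBB receptors that marks crypt stem cells, differed by -0.23 (limma adjusted p = 0.568), as did Rnf41, a ubiquitin ligase for ERBB3. Cblb, a ubiquitin ligase for EGFR, differed by 0.34, and Sh3kbp1, an adaptor of receptor uptake, by 1.04, which was set by Cre-positive mouse 1 (log2 9.61 against 7.01 to 7.61 in the others). Errfi1, which encodes the feedback inhibitor MIG6 and is named here after its values were seen, measured log2 11.84 and 10.27 in Cre-negative mice 1 and 2 and 12.63 and 10.86 in Cre-positive mice 1 and 2. Its order of mice was that of Ereg.

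Adaptors and the RAS-ERK cascade had 11 of 15 tested genes with a higher mean and a median difference of 0.06. Nras, a RAS protein, was at log2 8.81 and 8.82 against 9.20 and 9.09 (difference 0.33, unadjusted p = 0.0480, limma adjusted p = 0.449), with 1 of 3 probe sets going the other way. The dim Nf1, which switches RAS off, differed by 0.50 (unadjusted p = 0.00796, limma adjusted p = 0.265). The adaptor genes Grb2 and Shc1 differed by -0.19 and -0.13, with 1 of 2 Grb2 probe sets going the other way. In the PI3K-AKT and PLC branch 6 of 9 had a higher mean (median 0.13), with Pik3r1 at 0.26, Pdpk1 at 0.19, Pik3r2 at -0.18 and Akt1 at -0.07. For Pik3r1 2 of 4 probe sets above the filter went the other way, and for Pdpk1 1 of 2.

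Many genes that ERK signalling is known to induce were, like Hbegf and Ereg, higher in both mice numbered 1 than in both numbered 2. The Cre-positive mean was the higher one for all 8 ERK feedback inhibitors tested (median 0.33), against 38.5% of all genes, without a call. Cre-positive mouse 1 was the highest of the 4 mice in 5 of the 8. The median span between mice was 1.28, against 0.41 over all genes. Spred1 and Spred2, inhibitors of RAF activation, had separated groups, with differences of 0.28 and 0.32 (limma adjusted p = 0.539 and 0.544), but 4 of 8 Spred1 and 1 of 4 Spred2 probe sets pointed downwards. The genes Dusp5, Dusp6, Spry4, Fosb and Fosl1 are named after their values were seen. Dusp6, the cytoplasmic ERK phosphatase, measured log2 11.41 and 10.67 in Cre-negative mice 1 and 2 and 12.72 and 11.06 in Cre-positive mice 1 and 2. Dusp5, the nuclear ERK phosphatase, measured 9.38 and 6.73, then 9.37 and 7.05 on the log2 scale in the same order, which resembles Hbegf. Spry4, a Sprouty inhibitor, stood high in Cre-positive mouse 1 alone (5.89 against 4.05 to 4.15).

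Of 16 ERK-induced transcripts 10 had a higher and 6 a lower mean, with a median of 0.13. Etv5, a transcription factor gene, differed by 0.59 with separated groups (limma adjusted p = 0.560, with 1 of 3 probe sets going the other way), and Phlda1 by 1.17. Ier2 and Egr3, immediate early genes, differed by -0.16 and -0.08. Phlda1 measured log2 11.40 and 9.75 in Cre-negative mice 1 and 2 and 12.92 and 10.57 in Cre-positive mice 1 and 2. The AP-1 subunit gene Fosb spanned 3.73 between mice, from 6.86 in Cre-negative mouse 2 to 10.59 in Cre-positive mouse 1, and Fosl1 spanned 2.87. Both mice numbered 1 lay above both numbered 2 in 12 of the 16 and in 4 of the 8 feedback inhibitors. Among the members they did so in Hbegf, Ereg and Egfr, the last by only 1 of its 4 probe sets above the filter. This order held in 17% of all genes and in 28.8% of those that spanned more than 1 on the log2 scale. The Gapdh 3-prime to 5-prime ratio had it too, at 0.886 and 0.782 in Cre-negative and 0.992 and 0.847 in Cre-positive mice 1 and 2. So did the median intensity of the arrays, on the linear and not the log2 scale, at 9.37 and 9.17, then 9.42 and 9.14. The Actb ratio did not. The part of RNA quality or overall signal in these genes was not tested. The order was noticed in these data, and the labels do not say whether a number stands for a shared day or litter.

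**Figure D3:**
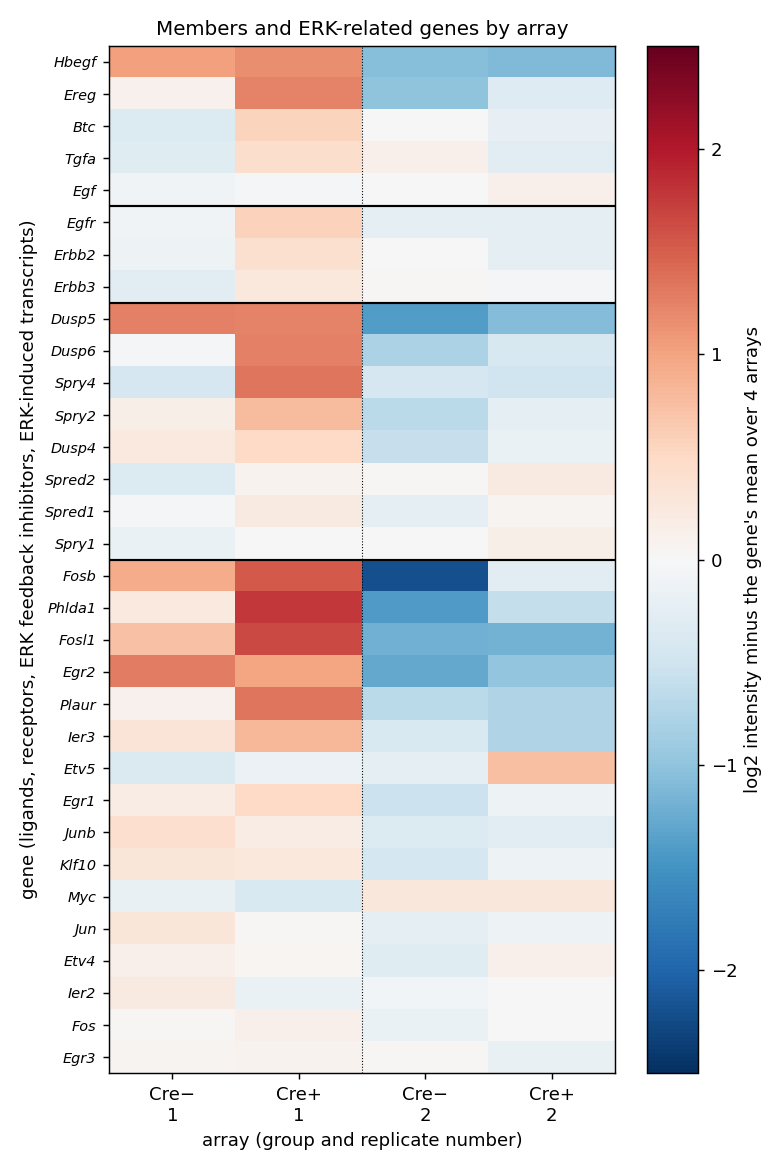
Log2 intensity minus the gene's own mean over the 4 mice (colour, red above and blue below), by the brightest probe set, with 1 column per mouse ordered by replicate number. Black lines part ligands, receptors, ERK feedback inhibitors and ERK-induced transcripts, each sorted by span. Hbegf, Ereg, Dusp5, Fosb, Phlda1, Fosl1 and Egr2 lie above their own mean in both mice numbered 1 and below it in both mice numbered 2.

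For the 2 members that spanned more than 1 on the log2 scale, the 3 genes closest in profile were found over the 4 mice by the root-mean-square difference of log2 values centred on each gene's mean. Ereg was nearest to Sprr1a, a cornified envelope gene (0.07), to 4632427E13Rik (0.09) and to Ccng2, a cyclin gene (0.12). Sprr1a measured log2 9.18 and 7.96 in Cre-negative and 10.30 and 8.59 in Cre-positive mice 1 and 2. Hbegf was nearest to Acta1, an actin gene (0.12), to Ccn1, a secreted matrix protein gene (0.13), and to Adm, which encodes adrenomedullin (0.16). Ccn1 measured log2 9.82 and 7.41 in Cre-negative and 9.96 and 7.56 in Cre-positive mice 1 and 2. With 4 mice such likeness is only a description.

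Some marker levels moved along with these mice. The summed intensity of 13 pan-epithelial markers was 213939 in Cre-positive mouse 1, the mouse highest for 7 of the 8 member genes, and 175334 to 178781 in the other 3. Neutrophil markers (6 measured, of which Cxcr2, Mpo and Elane lay under the filter) summed to 1564 in that mouse and 76.8 to 129 in the others. S100a8 (log2 9.70 against 4.79 to 5.91) and S100a9 (9.46 against 4.54 to 5.44) carried that sum, while Csf3r, the other one above the filter, lay between 3.38 and 3.49 in all 4 mice. Of 6 B and plasma cell markers measured, Cd79a, Cd79b and Mzb1 lay under the filter. The sum of all 6 was, like Hbegf and Ereg, higher in both mice numbered 1. It came to 7542 and 5112 in Cre-negative and 10176 and 5878 in Cre-positive mice 1 and 2. The median of the markers above the filter was only log2 3.54 and 3.46, then 3.85 and 3.28, so 1 marker carried most of this sum. The macrophage and monocyte sum (7 of 11 above the filter) was also higher in both mice numbered 1. It was 1904 and 1876 in Cre-negative and 2015 and 1484 in Cre-positive mice 1 and 2. The median of its markers above the filter did not have this order. That median was log2 4.79 and 5.10, then 5.33 and 6.30, highest in Cre-positive mouse 2. The pan-epithelial and neutrophil sums were also higher in both mice numbered 1. T and NK cell markers (6 of 9) had the reverse order, at 286 and 394, then 313 and 543. So did mast cell and basophil markers (4 of 8), at 976 and 1035, then 946 and 1455. Fibroblast markers (6 of 11), at 358 to 562, had neither order. In such bulk samples fewer cells of a type and less RNA per cell cannot be told apart, and the part of other cells in the values of Hbegf and Ereg was not tested.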

How the data were processed

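RNA of colon epithelium from 4 mice (2 per group) was hybridised to 1 array each. The labels call them biological replicates. The authors' intensity values were made with GC-RMA in ArrayAssist, per the file headers and the submitters' processing notes, a method that subtracts a background depending on probe GC content. The authors' second table, per the file headers, held rounded intensity values, log2 values relative to the Cre-negative mean, an absolute fold (ratio) and a p-value per probe set. The rounded intensities differed from the first table by at most 0.5, and its fold and p-values were not used further. Array depth has no counts, so the number of arrays limits precision.

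Of 45101 probe sets 34945 had 1 gene in the annotation and 9160 are unnamed here. Symbols were updated by gene identifier (34741 matched). The brightest probe set (highest mean over 4 arrays) stood for each of 18193 genes, and genes at or below the 40th percentile (log2 2.81) were left out, which left 12659. The test of log2 differences was that of limma 3.58.1 (R 4.3.3, eBayes with intensity trend, two-sided, Benjamini-Hochberg over all genes, threshold 0.05), with 2 residual and 1.58 prior degrees of freedom, and the fit was tested on simulated data. Members, lists and motifs were chosen with earlier results of these data known. Named genes were all members, Stat3, in each list the 2 higher and the 2 lower genes with the smallest unadjusted p, and the nearest profiles. Others were named after their values were seen. Alternatives changed the probe set rule, the filter, the log scale, the normalization, the test, the block and the arrays used.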

Additional observations from a re-analysis of the deposited data

How the results depend on the processing

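Under every alternative run 0 genes were called after adjustment, and 0 of the 8 members. Of 111 member differences recomputed, 101 kept their direction and 10 reversed. When each mouse was left out in turn, the log2 difference ranged from -1.09 to 1.19 for Hbegf, -0.19 to 0.52 for Tgfa, -0.0174 to 0.73 for Btc, -0.0058 to 0.16 for Egf, -0.0917 to 0.73 for Egfr and -0.18 to 0.46 for Erbb2. Ereg and Erbb3 stayed positive. The lone mouse then left in a group is assumed to vary like the other group. With all 4 mice, Tgfa was -0.0499 by the mean of its probe sets above the filter, which differed by 0.17 and -0.27. Egf was -0.0865 after quantile normalization, also with all 4 mice. The cause of the reversals on leaving out a mouse was not tested beyond the fewer samples, nor was that of the Egf reversal.

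Background counts moved more. Genes at an unadjusted p under 0.05 were 322 higher and 1077 lower. They were 911 and 2280 with every probe set fitted (more features tested). The lower count was 5319 without the filter, 259 with the filter at the 60th percentile, 610 with arrays centred on their medians and 583 without the intensity trend. Leaving out 1 mouse gave 114 to 1182 higher and 844 to 2188 lower. Separated groups numbered 3724 higher and 9587 lower over probe sets, and the lower count was 9527 without the filter and 2411 at the 60th percentile.

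Same-numbered mice are not known to be paired. Their deviations correlated at 0.42 over genes. With the replicate number as a replicate block, an unadjusted p under 0.05 was reached by 446 higher and 900 lower genes, and 0 were called. Ereg's unadjusted p went from 0.285 to 0.0249 (limma adjusted p = 0.466). The block changed no call.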
